A study of Mus musculus with 6 samples.

Results

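H4K5ac, the acetylated form of lysine 5 on histone H4, was followed over 4 glutamate receptor genes of the mouse hippocampus. Gria1, Gria2 and Gria4 encode subunits of the AMPA receptor, and Grid1 encodes a subunit of the delta receptor. The genes were taken by name from the GENCODE annotation of mouse genome NCBIM37 (mm9), and are 4 of its 34653 autosomal genes. Each was described by its gene body, from the first to the last annotated base, and by its promoter, the 5 kb before the annotated transcription start site (TSS).

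All mice were adult C57/BL6 males, 6 months of age by the labels. The fear-conditioned group (FC) received a foot shock in a context on consecutive days and was tested for memory of that context a day later. The control group (CON) was placed in the context with no shock. Chromatin of the hippocampus, a tissue of many neuron and glia types, was immunoprecipitated with an antibody to H4K5ac or with IgG, or kept as input, which gave 6 libraries with 1 library per group and antibody. Hippocampal samples were cross-linked separately within a group, but only 1 library per group and antibody stood for them, so no spread between animals could be measured and no test between FC and CON was made. The ratios below therefore compare libraries, not conditions, and each comes with an exact (Clopper-Pearson) 95% interval that covers counting error only. Where the ratio of the input or IgG libraries is subtracted, the 95% interval is not exact but a normal approximation from the read counts. A change in the share of cells that carry the mark and a change in the mark per cell cannot be told apart in this tissue.

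AMPA receptors are cation channels opened by glutamate and carry most of the fast excitatory current at hippocampal synapses. Gria1 encodes GluA1, a subunit added to synapses during potentiation, and Gria2 encodes GluA2, whose edited pore residue keeps most AMPA receptors closed to calcium. Gria4 encodes GluA4, which in the mature forebrain is known mainly from interneurons. Grid1 encodes GluD1, which binds cerebellins in the synaptic cleft and through them presynaptic neurexins. Acetylated lysine 5 of histone H4 is a mark of open, transcribed chromatin and is found at promoters as well as over gene bodies.

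The libraries held between 14549689 reads (FC IgG) and 45673239 reads (FC input), with 31605738 in the FC and 35962226 in the CON H4K5ac library. Reads that repeated a position and strand already seen made up 11.5% to 17.8% of a library. H4K5ac over IgG, as log2 ratio over the gene body, had a median of 1.17 in FC and 0.92 in CON for 7 markers of hippocampal neurons, and of 0.21 in FC and -0.14 in CON for 5 markers of tissues outside the brain, beside 0.71 and 0.60 for all genes. The 2 lists overlapped, with -0.81 (Neurod6) to 1.31 (Camk2a) in FC for neurons and -1.04 (Alb) to 0.99 (Apoa1) for the outside tissues. The medians for 4 astrocyte markers were 0.71 and 0.72, for 4 oligodendrocyte markers 0.95 and 0.71, and for 6 markers of microglia and endothelium 0.92 and 0.77.

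The members are long. Gria1 (ENSMUSG00000020524.10) lies at chr11:56824889-57143746 on the plus strand and spans 319 kb, with 5 annotated transcripts. Gria2 (ENSMUSG00000033981.7) lies at chr3:80488858-80606713 on the minus strand and spans 118 kb, with 3 transcripts. Gria4 (ENSMUSG00000025892.8) lies at chr9:4417899-4796234 on the minus strand and spans 378 kb, with 4 transcripts. Grid1 (ENSMUSG00000041078.6) lies at chr14:35633011-36396565 on the plus strand, spans 764 kb and is longer than 99.6% of protein-coding genes. Base composition divides them, since the bodies of Gria2 and Gria4 held 36.9% and 36.8% G and C, against 44.7% for Gria1, 43.4% for Grid1 and a median of 45.8% for protein-coding genes.

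The 250 bases before each TSS are shown because the members differ there in CpG content, with each CpG in capitals, read 5′ to 3′ along the strand of the gene from NCBIM37.
Gria1, chr11:56824639-56824888: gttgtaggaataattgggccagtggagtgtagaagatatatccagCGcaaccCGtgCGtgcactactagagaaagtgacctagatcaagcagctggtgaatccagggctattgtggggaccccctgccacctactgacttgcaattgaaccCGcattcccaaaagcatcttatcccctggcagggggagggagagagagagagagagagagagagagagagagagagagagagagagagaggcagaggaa
Gria2, chr3:80606714-80606963: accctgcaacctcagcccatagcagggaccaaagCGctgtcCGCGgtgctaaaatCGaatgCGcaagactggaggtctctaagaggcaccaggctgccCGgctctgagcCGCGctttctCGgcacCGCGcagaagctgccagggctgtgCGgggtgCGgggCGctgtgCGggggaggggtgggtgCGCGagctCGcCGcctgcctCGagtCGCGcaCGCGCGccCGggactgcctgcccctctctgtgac
Gria4, chr9:4796235-4796484: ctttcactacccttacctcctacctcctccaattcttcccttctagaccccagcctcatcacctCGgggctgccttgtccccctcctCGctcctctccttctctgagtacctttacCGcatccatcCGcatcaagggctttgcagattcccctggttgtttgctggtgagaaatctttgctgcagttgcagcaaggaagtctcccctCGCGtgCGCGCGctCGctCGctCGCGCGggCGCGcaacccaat
Grid1, chr14:35632761-35633010: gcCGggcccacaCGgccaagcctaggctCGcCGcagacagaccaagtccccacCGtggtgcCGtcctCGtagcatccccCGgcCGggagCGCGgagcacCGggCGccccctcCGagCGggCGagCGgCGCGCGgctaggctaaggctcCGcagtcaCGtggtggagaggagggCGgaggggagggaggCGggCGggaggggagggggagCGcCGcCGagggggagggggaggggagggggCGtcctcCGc
Grid1 had 30 CpGs in this stretch, more than 93.2% of protein-coding genes, Gria2 had 26 and Gria4 had 16. Gria1 had 4 CpGs and a run of GA repeats in front of its first annotated start, and its other starts lie further into the gene. Both strands were searched for 4 motifs. The GC box GGGCGG was found in Grid1 only, starting 80 and 61 bases before the TSS, and is in 39.8% of 21413 promoters of this length. The E-box CANNTG, present in 63.3% of promoters, was found at 2 places in Gria1 and at 1 each in Gria4 and Grid1. The core TGACG of the cAMP response element (19.5% of promoters) and the TATA box TATAAA (12.4%) were not in any of the 4 windows.

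Over the gene bodies, H4K5ac was densest on Gria1 and thinnest on Gria4. Density is given as RPKM, the reads per kb of sequence scaled to the number of reads in the library. Gria1 stood at 0.759 RPKM in FC H4K5ac and 0.741 in CON H4K5ac, against 0.446 and 0.453 in the IgG libraries and 0.583 and 0.489 in the inputs. Its H4K5ac libraries lay above the other 4, and above the median protein-coding gene (0.565 in FC and 0.556 in CON). Grid1 stood at 0.625 and 0.632 RPKM in FC and CON H4K5ac, 0.423 and 0.434 in IgG and 0.481 and 0.426 in input, so both H4K5ac libraries were again the highest. Gria2 stood at 0.514 RPKM in FC and 0.609 in CON H4K5ac, against 0.355 and 0.362 in IgG, 0.259 in FC input and 0.384 in CON input. For Gria2 the CON H4K5ac library was the highest and the FC input the lowest. Gria4 stood at 0.359 and 0.397 RPKM in FC and CON H4K5ac, 0.448 and 0.426 in IgG, and 0.232 and 0.37 in input. For Gria4, the IgG libraries were thus the highest and H4K5ac lay between IgG and input in each group. In the order of H4K5ac density (Gria1, Grid1, Gria2, Gria4) the counting intervals of neighbours overlapped only for Grid1 (0.623 to 0.642) and Gria2 (0.586 to 0.633) in CON.

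**Figure D1:**
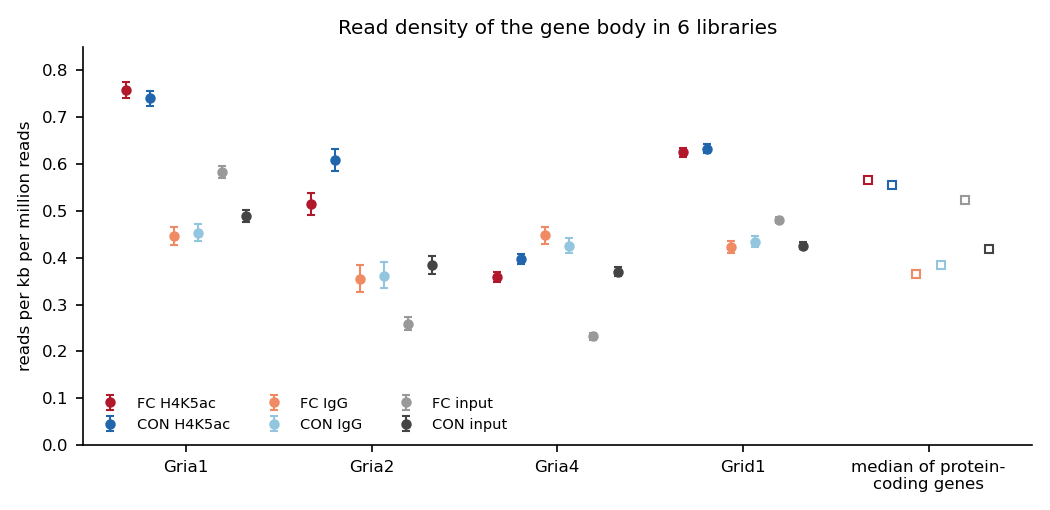
Gene body read density (RPKM) of the 4 members in the 6 libraries, with exact 95% Poisson intervals (circles), and the median of 21418 protein-coding autosomal genes (open squares). Gria1 and Grid1 have H4K5ac above IgG and input in both groups, and Gria4 has IgG above H4K5ac in both.

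Whether the mark stood above the mock immunoprecipitation was asked with the ratio of H4K5ac over IgG. Gria1 had a log2 ratio of 0.77 (0.70 to 0.84) in FC and 0.71 (0.64 to 0.78) in CON. Grid1 had 0.56 (0.51 to 0.61) and 0.54 (0.50 to 0.59). Gria2 had 0.53 (0.40 to 0.67) in FC and 0.75 (0.63 to 0.87) in CON. These 3 genes were therefore enriched in both groups beyond counting error. Gria4 was below IgG, at -0.32 (-0.39 to -0.24) in FC and -0.10 (-0.17 to -0.04) in CON, but divided by the median ratio of genes of the same GC content it stood above them, by 0.34 and 0.49. Past 1.5-fold lay 1 member of 4 in FC (Gria1) and 2 of 4 in CON (Gria1 and Gria2), beside 55.9% of all genes in FC and 51.2% in CON. The median log2 ratio of the members was 0.55 in FC and 0.63 in CON, beside 0.71 and 0.60 for all genes. Set against genes of the same GC content, Gria2 was 1.19 above their median in FC and 1.35 in CON, the largest such values among the 4, whereas Gria1 was 0.16 and 0.19 above and Grid1 0.05 and 0.07.

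Against input the order of the members changed in FC and was the same as over IgG in CON. Gria2 had the highest log2 ratio of H4K5ac over input in both groups, 0.99 (0.89 to 1.09) in FC and 0.66 (0.57 to 0.76) in CON. Gria4 stood at 0.63 (0.57 to 0.69) in FC and at 0.10 (0.04 to 0.16) in CON, Gria1 at 0.38 and 0.60, and Grid1 at 0.38 and 0.57. Past 1.5-fold over input were 2 of 4 members in FC (Gria2 and Gria4), beside 22.7% of all genes, and 2 of 4 in CON (Gria1 and Gria2), beside 41.8%. The inputs themselves differed on these genes. Relative to CON input, FC input was lower on Gria2 by a log2 ratio of -0.57 (-0.68 to -0.47) and on Gria4 by -0.67 (-0.73 to -0.61), and higher on Gria1 by 0.25 and on Grid1 by 0.17. At matched GC content these input differences shrank to 0.05, -0.05, -0.01 and -0.01.

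Other genes of glutamate receptor complexes are given for context, by H4K5ac over IgG on the gene body, where 55.9% of all genes lay past 1.5-fold in FC and 51.2% in CON. Among NMDA receptor subunits, 5 of 7 lay past 1.5-fold in FC and 3 of 7 in CON, with medians of 0.78 and 0.54, from Grin3a (0.06 in FC and 0.14 in CON) to Grin1 (1.21 and 0.47), the obligatory subunit. Among kainate receptor subunits, 3 of 5 did so in each group, with medians of 0.96 and 0.66, from Grik1 (-0.31 in FC and -0.30 in CON) to Grik5 (1.33 and 1.04). Among auxiliary subunits of the AMPA receptor, 8 of 10 did so in FC and 6 of 10 in CON, with medians of 0.75 and 0.65, from Cacng8 (0.37 and 0.12), a transmembrane regulator of AMPA receptors, to Cnih2 (1.79 and 1.9), a cornichon that shapes AMPA receptor gating. Among trafficking, scaffold, editing and extracellular partners, 9 of 12 matched genes did so in FC and 7 in CON, with medians of 0.78 and 0.77. These ran from Cbln4 (-0.52 and -1.24), a secreted cerebellin, to Nptxr (1.47 and 1.29), the neuronal pentraxin receptor. The 4 members had the lowest median of the 5 lists in FC but not in CON, where NMDA receptor subunits were lower. Their median GC content was the lowest of the 5, 40.2% against 48% to 52.2%.

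The mark was not spread evenly along the genes, and Gria1 and Grid1 sloped in opposite directions. Each body was cut into 10 equal parts from the TSS. On Gria1 H4K5ac rose toward the 3′ end, from 0.622 RPKM in the first part to 0.958 in the last in FC, and from 0.608 to 0.903 in CON. IgG on Gria1 stood at 0.44 and 0.435 RPKM in the same parts in FC and at 0.369 and 0.458 in CON. The log2 ratio over IgG on Gria1 went from 0.50 (0.27 to 0.74) to 1.14 (0.92 to 1.36) in FC, and from 0.72 (0.49 to 0.96) to 0.98 (0.78 to 1.19) in CON, where the intervals of the ends overlapped. In the 50 kb after the gene, the ratio dropped to -0.46 (-0.70 to -0.21) in FC and -0.56 (-0.78 to -0.33) in CON.

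On Grid1 H4K5ac fell toward the 3′ end. It was highest in the second part, at 1.05 RPKM in FC and 0.937 in CON, and stood between 0.435 and 0.527 RPKM from the sixth part on in both groups. The log2 ratio over IgG on Grid1 stood at 1.21 (1.07 to 1.35) in FC and 1.14 (1.01 to 1.28) in CON in the second part, and -0.03 (-0.19 to 0.13) and 0.19 (0.04 to 0.34) in the seventh. FC input followed the same course on Grid1, from 0.683 RPKM in the second part to 0.34 in the seventh, while CON input moved less, from 0.459 to 0.41. Base composition changed along Grid1 as well. Windows of 10 kb centred in the second part held 45.4% to 50.8% G and C, and those in the seventh 35.2% to 44.1%. Whether the slope of the mark remains at matched GC content was not tested.

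On Gria4 the log2 ratio over IgG was near 0 at the start, -0.02 (-0.25 to 0.22) in FC and -0.05 (-0.27 to 0.18) in CON. It fell to -0.73 (-0.97 to -0.50) and -0.56 (-0.77 to -0.35) in the last part. The 50 kb before the Gria4 TSS held still less of the mark, with 257 reads in FC H4K5ac and 248 in CON H4K5ac against 329 and 332 in the smaller IgG libraries, a log2 ratio of -1.48 (-1.72 to -1.24) in FC and -1.55 (-1.79 to -1.30) in CON. The gene body of Gria4 thus carried more of the mark than its upstream flank in both groups, although neither exceeded IgG. The 50 kb after Gria4 stood at -0.09 (-0.31 to 0.14) in FC and -0.34 (-0.54 to -0.15) in CON, with intervals that overlap those of the body. Gria2 showed no single slope, with its lowest H4K5ac in the fifth part (0.279 RPKM in FC and 0.302 in CON) and its highest in the seventh (0.66 and 0.861). The fifth part was also the lowest in IgG (0.257 RPKM in FC and 0.252 in CON) and in input (0.137 and 0.249). The dip there is thus not particular to H4K5ac.

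**Figure D2:**
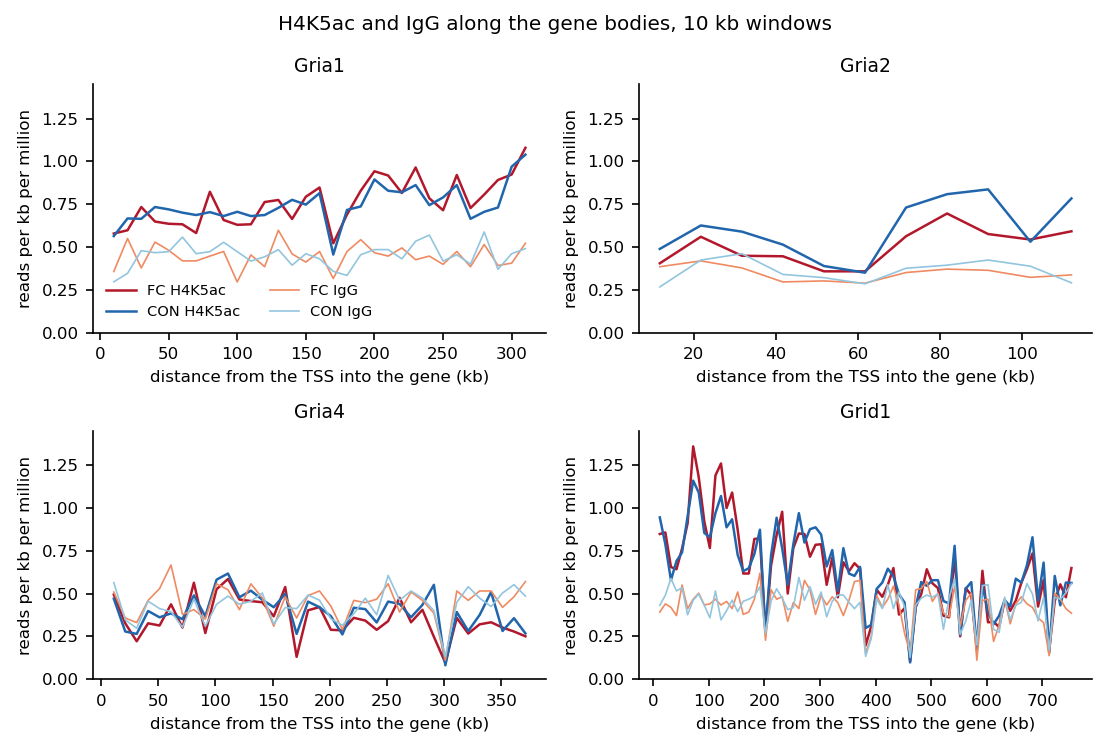
Read density (RPKM) in consecutive 10 kb windows of each gene body, against the distance from the TSS, for FC and CON H4K5ac and the IgG libraries. H4K5ac climbs along Gria1 and declines along Grid1 in both groups, and on Gria4 the H4K5ac and IgG lines cross repeatedly.

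**Figure D3:**
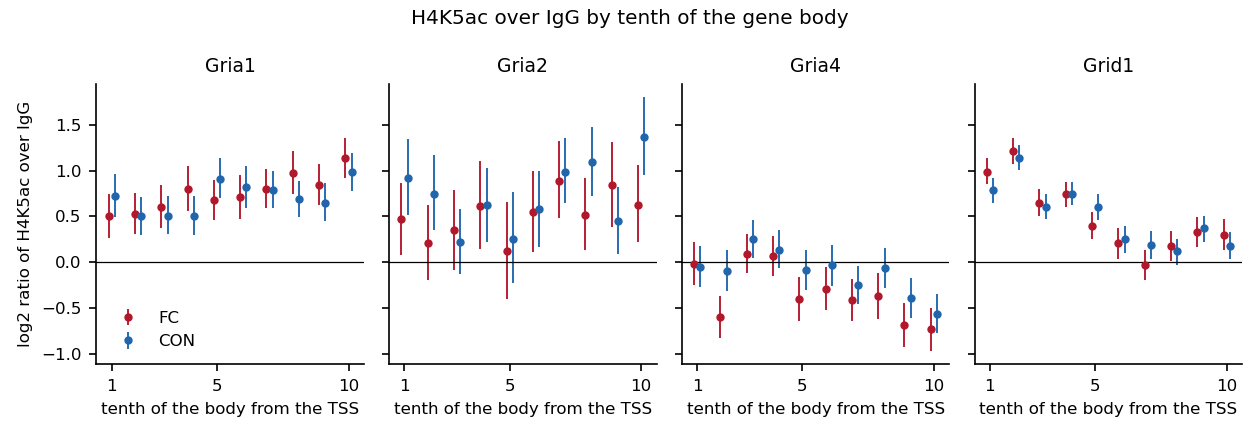
Log2 ratio of H4K5ac over IgG (vertical axis) in each of 10 equal parts of the gene body counted from the TSS, for FC (red) and CON (blue), with exact 95% intervals. The last part of Gria1 is at 1.14 in FC and 0.98 in CON, and the last part of Gria4 is at -0.73 and -0.56.

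At a scale of 10 kb, the FC and CON H4K5ac libraries ranked the windows of a gene alike. Spearman's rho between them, given as a description, was 0.79 over 31 windows of Gria1, 0.96 over 11 of Gria2, 0.78 over 37 of Gria4 and 0.94 over 75 of Grid1. The IgG libraries gave 0.21, 0.46, 0.54 and 0.45 over the same windows. They held fewer reads per window, which by itself can lower rho, so the 2 sets of values are not like for like. Neighbouring windows share sequence composition and mappability, so these are not independent points. Past 1.5-fold over IgG lay 22 of 31 windows of Gria1, 6 of 11 of Gria2, 0 of 37 of Gria4 and 30 of 75 of Grid1, and each of these counts was the same in FC and in CON. Equal counts did not mean the same windows. The Gria1 window 20.1 kb from the TSS passed in CON only, with H4K5ac at 0.667 RPKM against 0.346 in IgG, and 0.598 against 0.55 in FC. The window 30.1 kb from the TSS passed in FC only, at 0.734 against 0.378, and 0.665 against 0.479 in CON. Over all windows of the autosomes the shares were 26.2% in FC and 24.5% in CON.

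Introns held nearly all reads of the members, and over IgG the exons did not stand above them. Grid1 introns had a log2 ratio over IgG of 0.56 (0.52 to 0.61) in FC and Grid1 exons 0.03 (-0.52 to 0.60), from 91 H4K5ac reads. Gria1 exons had 1.06 (0.50 to 1.66) in FC and 0.55 (0.07 to 1.04) in CON, which took in the intron values of 0.76 and 0.71. The exon and intron intervals over IgG also overlapped for Gria2 and Gria4 in both groups. Over FC input the exons lay below the introns on 3 members, at -0.56 (-0.94 to -0.19) against 0.39 (0.35 to 0.42) on Grid1, -0.16 (-0.58 to 0.26) against 0.65 (0.59 to 0.71) on Gria4, and 0.01 (-0.31 to 0.32) against 0.39 (0.34 to 0.44) on Gria1. The exons of the members were richer in G and C than their introns, 51.6% against 43.4% on Grid1, and over CON input the exon and intron intervals overlapped on Gria1, Gria2, Gria4 and Grid1 alike. Gria2 exons had 122 reads in FC and 195 in CON H4K5ac, a log2 ratio of -0.49 (-0.83 to -0.16), and Gria2 introns stood at -0.23 (-0.32 to -0.14).

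Local enrichment was sought with a scan of 300 bp windows, with 1 read kept per position and strand and a Poisson p of 1e-05 against the local density of the IgG library. Such regions lay in 2 of 4 members in FC (Gria1 and Grid1) and in 3 of 4 in CON (Gria1, Gria2 and Grid1), beside 28.3% and 30.3% of all genes, and beside 64.1% and 67.2% of genes of 100 kb or more. Grid1 had 14 regions in FC and 13 in CON, of which 5 of 14 and 6 of 13 overlapped a region of the other group, beside 37.4% of all FC regions and 31.9% of all CON regions. Gria1 had 4 in FC and 3 in CON with no overlap, all in introns, and 5 of these 7 lay in the last introns, 302 to 311 kb from the TSS. Gria2 had 4 in CON only, and Gria4 had none.

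The densest stretch of Grid1 lay in intron 2, 75.1 to 78.9 kb into the gene, and FC and CON both showed it. One region of the FC library ran from chr14:35707951 to 35708950 and held 66 reads of FC H4K5ac and 65 of CON H4K5ac (1 read per position and strand), against 4 and 6 in IgG and 31 and 12 in input. It begins just past the end of Mir346 (chr14:35707795-35707892), a microRNA gene inside Grid1 on the same strand. Within 2 kb of Mir346 the H4K5ac density was 1.74 RPKM in FC and 1.42 in CON, against 0.587 and 0.414 in IgG, or log2 ratios of 1.57 (1.05 to 2.12) and 1.78 (1.21 to 2.41). FC input was also dense there, at 0.785 RPKM against 0.495 in CON input. The mature products of Mir346 are shown to identify this locus, from RefSeq (GRCm38.p6), with the seed, bases 2 to 8, in capitals.
mmu-miR-346-5p: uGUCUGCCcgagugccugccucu
mmu-miR-346-3p: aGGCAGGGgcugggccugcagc
The 300 bp of the Grid1 body with the most H4K5ac reads over both groups started 619 bp past the end of Mir346. They held 27 reads in FC H4K5ac and 27 in CON H4K5ac, 2 and 2 in IgG, and 10 and 4 in input, and contained 1 CpG, in capitals. This stretch is shown in full since both groups share it.
Grid1 intron 2, chr14:35708511-35708810, plus strand: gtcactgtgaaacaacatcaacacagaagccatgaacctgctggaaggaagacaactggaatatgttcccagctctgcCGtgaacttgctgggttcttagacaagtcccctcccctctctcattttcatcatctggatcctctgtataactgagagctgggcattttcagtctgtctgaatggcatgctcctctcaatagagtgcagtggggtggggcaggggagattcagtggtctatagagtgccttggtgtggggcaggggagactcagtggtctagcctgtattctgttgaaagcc

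Whether fear conditioning went with a different level of the mark was asked with the ratio of FC over CON H4K5ac. No member was more than 25% higher in one library than in the other over its gene body. Gria1 had 7650 reads in FC and 8497 in CON, a log2 ratio of 0.03 (-0.01 to 0.08) after scaling. Grid1 had 15076 and 17365 reads, a log2 ratio of -0.02 (-0.05 to 0.01). Both genes were level between the libraries within counting error, as shares of the reads of each library. Scaling of this kind hides a rise of the mark over the whole genome. By Western blot the paper reports more H4K5ac in the hippocampus after the memory test than in controls. Those controls were taken on the first day, earlier than the CON mice here. The ratios of FC over CON are thus relative to the rest of the genome and not amounts of the mark. Gria2 had 1915 and 2581 reads, a log2 ratio of -0.24 (-0.33 to -0.16), and Gria4 had 4297 and 5397 reads, at -0.14 (-0.20 to -0.08). The intervals of these 2 genes excluded 0, with FC the lower library, while the median of all genes was 0.04. At matched GC content Gria2 stood at -0.10 and Gria4 at 0.00. The inputs moved further the same way on both genes, and less the input ratio the direction turned, to 0.33 on Gria2 and 0.53 on Gria4. Less the input ratio, Gria1 stood at -0.22 and Grid1 at -0.19. Counted past this threshold with an interval that excludes no change, 0 of 4 members were higher in FC, beside 5.96% of all genes, and 0 of 4 were lower, beside 1.86%. The IgG libraries differed little on the members, with FC over CON between -0.04 and 0.07.

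**Figure D4:**
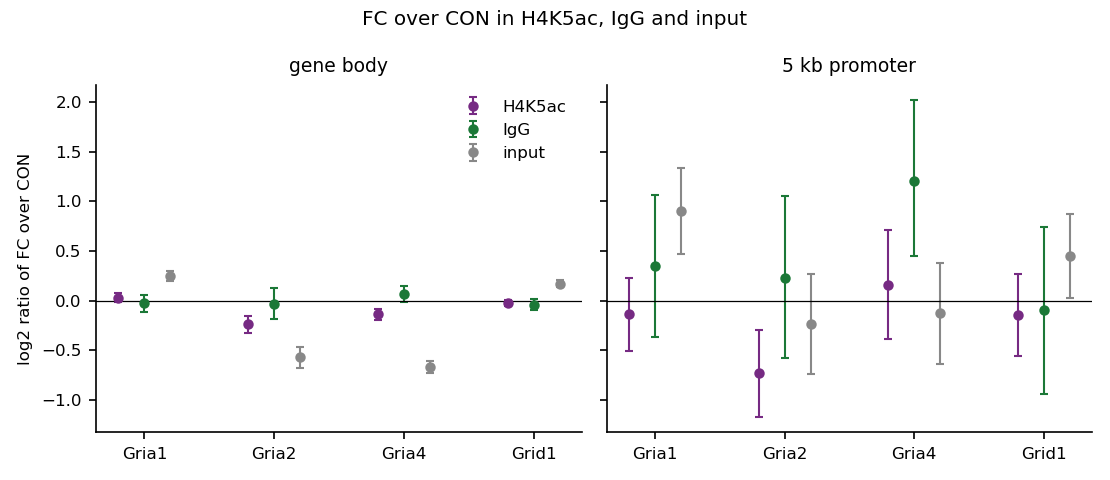
Log2 ratio of the FC over the CON library (vertical axis) for H4K5ac, IgG and input, over the gene body (left) and the 5 kb promoter (right) of each member, with exact 95% intervals. On the bodies of Gria2 and Gria4, H4K5ac is at -0.24 and -0.14 and input at -0.57 and -0.67.

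Within the bodies, windows of 10 kb that differed past the same threshold were mostly lower in FC. There were 4 of 11 in Gria2, 5 of 37 in Gria4 and 4 of 75 in Grid1, and 0 of 31 in Gria1, beside 6.43% of all windows of the genome. Grid1 and Gria1 did not exceed that share, which was not matched for GC content. Higher in FC were 2 of 75 in Grid1 and 0 in each of the other members, beside 5.24%. With 1 read kept per position and strand, 3 each remained lower in Gria2, Gria4 and Grid1, and 1 remained higher in Grid1, all of them among the windows called with every read. The share of all windows called at that setting was not counted, so these recounts have no genome-wide reference. The window 291 kb into Gria4 had 78 reads in FC H4K5ac and 198 in CON H4K5ac, but 103 of the CON reads lay on a single position and strand. Its log2 ratio of -1.16 (-1.55 to -0.77) became -0.16 (-0.64 to 0.30) once repeats were removed. The window 171 kb into Gria4, chr9:4620001-4630000, had 41 and 95 reads, with 52 and 68 in IgG and 66 and 117 in input. Its log2 ratio was -1.03 (-1.59 to -0.48), and -1.05 (-1.67 to -0.46) without repeats. Input was lower in FC there as well once scaled, at 0.145 RPKM in FC and 0.33 in CON, beside 0.13 and 0.264 for H4K5ac. This window is therefore not particular to the H4K5ac libraries.

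Scanning the H4K5ac libraries against each other gave regions in Gria2 only at the settings used here. The paper differs on Grid1, which it lists among the genes that MACS called more acetylated in FC than in controls. Its quantitative PCR gave more Grid1 mRNA in the hippocampus after conditioning. The scan used here is modelled on MACS but is not the same program, and the reason for the difference was not tested. Regions higher in CON lay in 1 of 4 members, beside 1.71% of all genes and 11.3% of genes of 100 kb or more, and regions higher in FC in 0 of 4, beside 2.47% and 9.85%. The first Gria2 region lies in intron 5, 78.4 kb from the TSS, with 21 reads in CON H4K5ac and 8 in FC H4K5ac, 1 and 1 in the IgG libraries and 4 and 4 in the inputs. The second lies in intron 2, 38.8 kb from the TSS, with 17 reads in CON H4K5ac and 3 in FC, 0 in CON IgG and 3 in FC IgG, and 5 and 9 in the inputs. CON H4K5ac is the highest library at both. These are unshifted reads that overlap a region. The shifted reads of the scan were 23 in CON and 5 in FC in the first region, and 18 and 3 in the second. Neither region was called at a Poisson p of 1e-07. With a read shift of 50 bp the second remained, and with scaling within steps of GC content the first. Grid1 gained a region higher in FC with a read shift of 50 bp, in intron 2 at chr14:35681201-35681500, with 21 reads in FC H4K5ac and 10 in CON H4K5ac, where 10.8% of genes of 100 kb or more had such a region. With all deposited reads Gria2 had 5 regions higher in CON, Grid1 had 5 higher in FC and 3 higher in CON, and Gria4 had 3 and 1. At that setting 59.9% of genes of 100 kb or more had a region higher in FC and 43.7% one higher in CON. Both are shown on the strand of the gene with each CpG in capitals, since they are the 2 regions of Gria2 called in this scan, and each has 2 CpGs.
Gria2 intron 5, chr3:80528151-80528450: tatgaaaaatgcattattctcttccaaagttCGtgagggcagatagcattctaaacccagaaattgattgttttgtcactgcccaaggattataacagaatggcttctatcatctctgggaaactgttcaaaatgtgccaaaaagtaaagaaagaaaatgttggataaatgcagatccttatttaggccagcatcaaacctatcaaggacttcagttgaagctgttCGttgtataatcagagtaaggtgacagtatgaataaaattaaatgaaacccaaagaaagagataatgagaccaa
Gria2 intron 2, chr3:80567801-80568100: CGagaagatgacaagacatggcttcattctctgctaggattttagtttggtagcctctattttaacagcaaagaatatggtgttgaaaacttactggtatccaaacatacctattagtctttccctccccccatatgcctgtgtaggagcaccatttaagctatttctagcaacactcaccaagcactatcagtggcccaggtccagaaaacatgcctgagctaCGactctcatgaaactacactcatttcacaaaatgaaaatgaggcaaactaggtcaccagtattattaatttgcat

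In the 5 kb promoters the mark was again lower in FC on Gria2, and the intervals of the other members included no change. The Gria2 promoter had 71 reads in FC and 134 in CON H4K5ac, with 28 and 27 in IgG and 72 and 66 in input. The log2 ratio of FC over CON was -0.73 (-1.17 to -0.30), lower than in all but 1.36% of protein-coding genes, and -0.69 at matched GC content. Gria1 had 111 and 139 reads, a log2 ratio of -0.14 (-0.51 to 0.23), and Grid1 had 89 and 112, at -0.15 (-0.56 to 0.27). Gria4 had 57 and 58 reads, at 0.16 (-0.39 to 0.71). Lower in FC past the threshold used for the bodies was 1 of 4 members, beside 4.05% of all genes, and higher was 0 of 4, beside 7.69%. With 57 to 139 reads per promoter, differences of the size seen on Gria1, Gria4 and Grid1 were not detectable at this depth. These calls depended on the reference library. Less the input ratio, Gria2 was no longer called, at -0.49 (-1.13 to 0.14), whereas Gria1 stood at -1.04 (-1.59 to -0.49) and Grid1 at -0.59 (-1.16 to -0.02). Less the IgG ratio, Gria2 stood at -0.96 (-1.83 to -0.09) and Gria4 at -1.05 (-1.96 to -0.15).

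Over IgG, the promoters past 1.5-fold were 1 of 4 in FC (Grid1) and 3 of 4 in CON (Gria1, Gria2 and Grid1), beside 48% and 44.1% of all genes. The Grid1 promoter had log2 ratios of 0.77 (0.11 to 1.49) in FC and 0.82 (0.22 to 1.47) in CON, and the Gria1 promoter 0.47 (-0.08 to 1.04) and 0.95 (0.39 to 1.54). The Gria2 promoter had 0.22 (-0.43 to 0.91) in FC and 1.19 (0.58 to 1.84) in CON. These intervals overlap between the groups for each of the 3 genes, but the interval of the difference itself, less the IgG ratio, excluded 0 on Gria2. Set against promoters of the same GC content, Gria2 came before Grid1 in FC too, with Gria2 1.06 above their median log2 ratio in FC and 1.98 in CON and Grid1 below it, at -0.61 and -0.27. Gria1 stood at -0.43 in FC and 0.22 in CON on this scale. The Gria4 promoter stood at -0.78 (-1.37 to -0.18) in FC and 0.27 (-0.46 to 1.05) in CON. The IgG library moved with that result, with 45 reads in FC IgG and 22 in CON IgG, or 33 and 22 with 1 read per position and strand, and H4K5ac reads of 57 and 58. At matched GC content the Gria4 promoter lay above the median, by 0.86 in FC and 1.93 in CON.

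Nearer to the TSS, Gria2 reads lay on both sides of the start in both groups, but in different proportions. In the 2 kb before the TSS, Gria2 had 44 reads in FC and 78 in CON H4K5ac, a log2 ratio of -0.64 (-1.21 to -0.09). In the 2 kb after it, the order turned, with 74 in FC and 48 in CON, a log2 ratio of 0.81 (0.27 to 1.37). IgG had 13 and 13 reads before the Gria2 TSS and 11 and 13 after it, and input had 40 and 21 before and 44 and 34 after. With 1 read per position and strand the ratios were -0.58 (-1.20 to 0.03) and 0.71 (0.12 to 1.30). Taken over 2 kb on either side together, Gria2 had 118 and 126 reads and a log2 ratio of 0.09 (-0.28 to 0.47), and within 1 kb on either side the ratio was -0.03 (-0.54 to 0.48). In bins of 500 bp, CON H4K5ac peaked 500 to 1000 bp before the Gria2 TSS with 31 reads and FC H4K5ac 500 to 1000 bp after it with 23. The CON peak coincided with a region called over IgG, chr3:80607151-80607450, with 18 reads in CON H4K5ac and 9 in FC H4K5ac. These windows were chosen after their values were seen.

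Gria4 also had more FC than CON reads after its start. In the 2 kb after the TSS it had 53 in FC and 33 in CON H4K5ac, a log2 ratio of 0.87 (0.22 to 1.54), and 0.91 (0.24 to 1.59) without repeats. IgG had 14 and 8 reads there and input 40 and 19, so that the FC library was the higher one for each antibody and for input. Before the Gria4 TSS, H4K5ac was level at 37 and 33 reads in the 2 kb upstream, whereas IgG had 21 in FC and 5 in CON. Around the start of transcript Gria4-204, 1 kb on either side, FC had 58 reads and CON 33. Gria1 and Grid1 had near equal numbers, with 48 and 48 in the 2 kb after the Gria1 TSS and 24 and 28 after the Grid1 TSS. Grid1 had more of the mark before its start than after it, at 49 and 55 reads in the 2 kb upstream, where IgG had 5 and 7.

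A second annotated start of Grid1 lies near its 3′ end, at chr14:36383180 (transcript Grid1-002). Within 1 kb of it, H4K5ac had 50 reads in FC and 26 in CON, a log2 ratio of 1.13 (0.42 to 1.87), while IgG had 12 and 20 and input 60 and 32. Without repeats the H4K5ac ratio was 0.91 (0.16 to 1.70). FC was thus the higher library in H4K5ac and in input and the lower one in IgG. At the first Grid1 start the counts were 22 and 19. With all reads, the second start had the highest FC over CON ratio among all annotated starts of the members. The start of Gria4-204 came next, at 1.00 (0.36 to 1.66). Without repeats that order turned, with Gria4-204 at 0.94 (0.27 to 1.62). The starts of Gria1 stood between -0.12 and 0.38 with all reads, with intervals that included 0. Starts of other genes were not counted, so these ratios have no genome-wide reference.

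**Figure D5:**
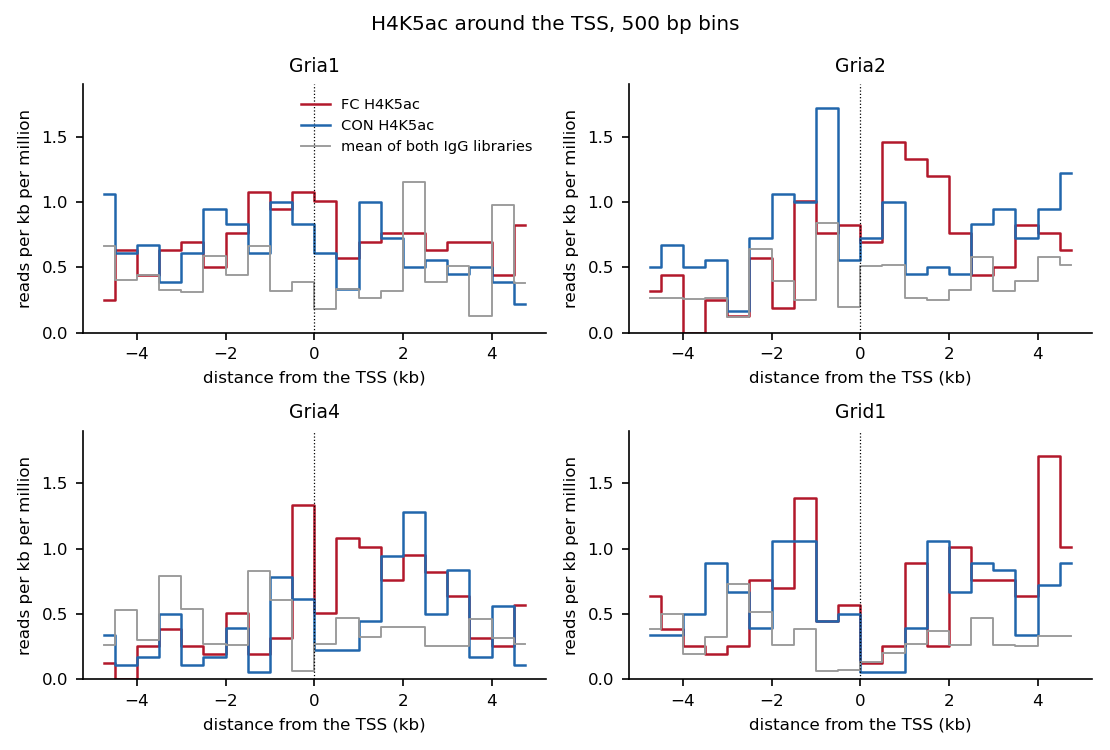
Read density (RPKM) in 500 bp bins from 5 kb before to 5 kb after the TSS of each member, for FC and CON H4K5ac and for the mean of both IgG libraries. On Gria2 the CON line peaks upstream of the TSS at 1.72 and the FC line downstream at 1.46.

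In the flanks, the largest ratio of FC over CON H4K5ac came from a single position. The 50 kb upstream of Grid1 held 444 reads in FC and 846 in CON H4K5ac, a log2 ratio of -0.74 (-0.91 to -0.58), but 384 of the CON reads shared 1 position and strand, 42.1 kb before the TSS. With 1 read per position and strand the counts were 390 and 407, and the log2 ratio was 0.17 (-0.03 to 0.38). The 50 kb downstream of Gria2 had 649 and 864 reads, a log2 ratio of -0.23 (-0.38 to -0.08), and -0.20 (-0.35 to -0.04) without repeats, which is near the value of the Gria2 body. The 50 kb upstream of Gria2 stood at -0.10 (-0.24 to 0.04), an interval that includes no change. Among the nearest protein-coding genes, Glrb, the glycine receptor beta subunit gene 40.8 kb upstream of Gria2, had log2 ratios over IgG of 0.85 in FC and 0.98 in CON and was slightly lower in FC, at -0.16 (-0.25 to -0.07). Fam198b, 739 kb downstream of Gria2, had 1.03 and 0.76 over IgG and was level between FC and CON, at -0.05 (-0.15 to 0.05). Casp1, 502 kb upstream of Gria4, had -1.25 and -0.92 over IgG, and 8430410K20Rik, 31 kb downstream of Gria4, had 0.33 and 0.15, so that Gria4 lay between its neighbours. Wapal, upstream of Grid1, had 0.21 and 0.41, and Fam114a2, downstream of Gria1, 0.64 and 0.32. Nmur2, upstream of Gria1, had -0.41 and -0.64, and 4930596D02Rik, downstream of Grid1, -1.80 and 0.08. Other annotated microRNA genes lie inside Gria2 (AC163349.1) and Gria4 (CT030685.1). Within 2 kb of AC163349.1 H4K5ac had 99 reads in FC and 142 in CON against 21 and 23 in IgG, log2 ratios of 1.12 (0.43 to 1.87) and 1.5 (0.86 to 2.21). Within 2 kb of CT030685.1 H4K5ac had 34 and 63 reads against 28 and 20 in IgG, log2 ratios of -0.84 (-1.60 to -0.06) and 0.53 (-0.21 to 1.33).

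Genes of at least 50 kb whose densities over the 6 libraries were most like those of a member were named from the Euclidean distance of log2 RPKM over 4623 genes. For Gria1 these were Tg (0.057) and Ablim1 (0.125), where the median gene lay at 0.88. For Gria2 they were Zcchc11 (0.112) and Myo9a (0.123), with the median gene at 1.28, and for Gria4 Dgkb (0.188) and Epha6 (0.193), with the median at 1.57. For Grid1 they were Rnf150 (0.087) and Jam2 (0.098), with the median at 0.744. Gria4 lay farthest from the bulk of genes, and its closest genes were less close than those of the other members.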

How the data were processed

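ChIP-seq of H4K5ac, IgG and input from mouse hippocampus was analysed from reads already aligned. The authors aligned SOLiD reads of up to 50 bp to mm9 with Bioscope, and deposited 1 line per read with its position, strand and a mapping quality score from 4 to 100, with repeats kept. Reads overlapping a gene body or the 5 kb promoter by 1 bp or more were counted with Python 3.11.15 and NumPy 2.4.6, with intervals from SciPy 1.17.1, and scaled to all reads of the library. No autosomal read lay past the end of a chromosome in the reference. With 1 library per group and antibody no test across samples was possible. Ratios carry exact 95% intervals of the reads of 2 libraries, and calls required at least 20 reads. Ratios less the input or IgG ratio carry a normal approximation instead. Reads are PCR products without molecular identifiers, so intervals cover counting error only. The scan was modelled on MACS, with the study's bandwidth (300 bp windows) and p of 1e-05. Steps of 50 bp, a read shift of 75 bp and the local background over 1, 5 and 10 kb were set here. The ratios and the scan were tested on simulated data with known changes. The members and lists were chosen with earlier results of these data known. Named genes were the members, the genes of highest and lowest FC ratio over IgG in each list, neighbours, and the closest 2 genes per member.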

Additional observations from a re-analysis of the deposited data

Results flagged for a closer look

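In 3 cases the H4K5ac ratio of a promoter pointed one way in FC and the other way in CON. With 1 library on each side, none of these differences was tested. The Gria4 promoter had a log2 ratio of H4K5ac over IgG of -0.78 in FC and 0.27 in CON. Over input it stood at 0.17 (-0.35 to 0.69) in FC and -0.12 (-0.66 to 0.43) in CON. The Grid1 promoter had a log2 ratio over input of -0.07 (-0.47 to 0.33) in FC and 0.52 (0.09 to 0.96) in CON. The intervals overlap between FC and CON in each case, but overlap does not decide whether 2 ratios differ. The difference itself, with an approximate interval, was -1.05 (-1.96 to -0.15) for Gria4 over IgG and -0.59 (-1.16 to -0.02) for Grid1 over input. For Gria4 over input it was 0.29 (-0.43 to 1.01). FC input had 135 reads on the Grid1 promoter and CON input 77, and the part of the inputs in this difference was not tested. At matched GC content FC and CON had the same sign in all 3 cases. The Grid1 promoter over input stood at -0.43 in FC and -0.36 in CON. The Gria4 promoter stood at 0.86 in FC and 1.93 in CON over IgG, and at 0.88 and 1.44 over input.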

How the results depend on the processing

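Of 68 counts of members recomputed under other settings of counting, scaling and scanning, 54 stayed within 1.5 times the reported count, but in 3 cases an equal count held other members. At matched GC content, Gria2 took the place of Gria1 among bodies past 1.5-fold over IgG in FC (16.1% of all genes), and Gria4 that of Gria1 over input in CON (12.9%). Within 2 kb on either side of the TSS, Gria4 took the place of Gria2 in FC over CON (12.3%). Promoters past 1.5-fold over IgG in FC, 1 as reported, were 0 with reads of a score of at least 50 (47.1% of all genes), 3 with a promoter of 2 kb (58.5%) and 3 within 2 kb on either side of the TSS (55.5%). Bodies past 1.5-fold in CON, 2 as reported, were 1 over IgG at matched GC content (14.1% of all genes), and 1 over input with 1 read per position and strand (40.1%), 1 with the score limit (40.7%) and 1 with scaling to autosomal reads (40.4%). Less the input ratio, 2 bodies (Gria2 and Gria4, both higher) and 2 promoters (Gria1 and Grid1, both lower) differed between FC and CON, without Gria2, beside 38.6% of all bodies and 24.8% of all promoters. Less the IgG ratio 2 promoters did (Gria2 and Gria4, both lower), beside 10.3%. In the scan, members with a region higher in FC were 2 with all deposited reads (Gria4 and Grid1, beside 15.4% of all genes) and 1 with a shift of 50 bp (Grid1, beside 2.57%), and members with a region higher in CON were 0 at a p of 1e-07 (beside 0.182%) and 3 with all deposited reads (Gria2, Gria4 and Grid1, beside 7.89%). The Gria2 promoter difference of -0.73 turned to 0.09 within 2 kb on either side of the TSS, and the Grid1 upstream flank from -0.74 to 0.17 with 1 read per position and strand, an alternative chosen after seeing the data. Apart from the repeated reads described for the flank and for the Gria4 window, the cause was not tested. Of 232 single ratios of members under these settings, 188 stayed within the reported interval, and 14 changed sign, 9 of them outside that interval. These included the bodies of Gria2 and Gria4 less the input ratio, given there, the Gria4 body over IgG at matched GC content, and the Gria4 promoter, at 0.26 over IgG in FC within 2 kb on either side of the TSS and at -1.05 in FC over CON less the IgG ratio. No paired analysis was possible because each group had 1 library per antibody. Precision is limited by read number in promoters, and the spread between animals was not measured.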
